A study of Mus musculus with 29 samples.

Results

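IRF8 binding was mapped by CUT&RUN, in which a nuclease tethered to an antibody releases bound DNA, in microglia, the macrophages that live in brain tissue, at postnatal day 9 (P9) and postnatal day 14 (P14). The 7 libraries titled for these stages and for IRF8, 4 at P9 and 3 at P14, were taken from the 25 libraries of the series that have peak lists. All 7 came from sorted microglia of mice labelled as female and of the strain IRF8-EGFP, and the antibody was to GFP (Abcam ab290), so that both stages were measured through the GFP label and not through IRF8 itself. No other agent or allele is named for either stage. The labels say that 4 of 7 P9 libraries were provided, without saying on what grounds or how many animals went into each. An adult age of 3 months stands in the growth protocol of all samples, these included, and the ages in the sample titles were followed. The 4 P9 lists gave 1374 consensus regions, meaning merged regions with a listed region in at least 2 libraries of the stage, and the 3 P14 lists gave 8136. Merging all 7 lists gave 23180 regions in all.

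IRF8 is a transcription factor of the interferon regulatory factor family that is required for the normal development and state of microglia. It binds DNA weakly alone and is known to bind with PU.1 (encoded by Spi1), another factor of myeloid cells, at composite sites in which an ETS core is followed by an interferon-type core, and with partners of the AP-1 family such as BATF. With other interferon regulatory factors it also binds the repeated GAAA core of interferon-response elements, found in the promoters of genes for antiviral defence and antigen presentation. In the second postnatal week microglia leave the proliferative early state and take up genes of the homeostatic state, such as P2ry12 and Tmem119.

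Sequences are shown for 9 sites that the results below turn on, so that shared and P14-only sites can be compared letter by letter. Throughout, 4 motifs were searched on both strands: GGAANNGAAA (composite), GAAANNGAAA (interferon-type), GAGGAAGT (ETS) and TGANTCA (AP-1). Capitals mark the match nearest to the summit in the P14 library with the highest −log10 p, and any further match of the same motif within the 45 bases shown on each side. The matches lay 76 to 187 bp from that summit. All sequences are from GRCm38.p6 (mm10) and are written 5′ to 3′ on the strand that carries the motif. The first 4 lie in regions of both stages: an intron of P2ry12 (chr3:59225561-59225660, minus strand), an intergenic site −360 kb from Sall1 (chr8:89404425-89404524, plus strand), and the promoters of Gbp3 (chr3:142560490-142560589, minus strand) and Psmb8 (chr17:34198300-34198399, minus strand).
P2ry12, both stages, composite: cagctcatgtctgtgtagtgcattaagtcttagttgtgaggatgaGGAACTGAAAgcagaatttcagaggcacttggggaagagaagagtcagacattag
Sall1 at −360 kb, both stages, composite: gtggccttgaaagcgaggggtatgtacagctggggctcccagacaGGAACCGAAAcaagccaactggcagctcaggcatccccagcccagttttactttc
Gbp3, both stages, interferon-type: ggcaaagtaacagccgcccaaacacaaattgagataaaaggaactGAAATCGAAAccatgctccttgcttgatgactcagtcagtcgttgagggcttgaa
Psmb8, both stages, interferon-type: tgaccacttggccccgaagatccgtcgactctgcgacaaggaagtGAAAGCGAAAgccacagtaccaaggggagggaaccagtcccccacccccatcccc

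The next 5 lie in regions listed in all 3 P14 libraries and in 0 of 4 P9 libraries: an intron of Olfml3 (chr3:103728096-103728195, plus strand), the promoters of B2m (chr2:122147503-122147602, plus strand) and Ifit3 (chr19:34583328-34583427, minus strand), an intron of Tlr2 (chr3:83839359-83839458, plus strand), and a site 54.6 kb downstream of the nearest annotated start of Irf8 itself (chr8:120792761-120792858, plus strand). The Ifit3 window holds 2 interferon-type matches, and the Gbp3 and Psmb8 windows each also hold a composite match that shares bases with the capitals. The Gbp3 and Olfml3 windows hold an AP-1 match elsewhere. The same letters occur in both kinds of site, and a match is a description of the sequence only.
Olfml3, P14 only, composite: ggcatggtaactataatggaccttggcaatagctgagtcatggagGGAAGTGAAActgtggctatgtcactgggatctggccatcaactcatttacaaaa
B2m, P14 only, interferon-type: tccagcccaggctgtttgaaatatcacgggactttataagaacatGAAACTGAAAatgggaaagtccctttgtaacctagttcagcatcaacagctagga
Ifit3, P14 only, interferon-type: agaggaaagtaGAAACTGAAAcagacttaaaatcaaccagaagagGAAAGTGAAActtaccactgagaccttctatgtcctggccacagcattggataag
Tlr2, P14 only, interferon-type: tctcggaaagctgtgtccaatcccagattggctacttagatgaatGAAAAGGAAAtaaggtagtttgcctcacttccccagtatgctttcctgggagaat
Irf8 downstream site, P14 only, ETS: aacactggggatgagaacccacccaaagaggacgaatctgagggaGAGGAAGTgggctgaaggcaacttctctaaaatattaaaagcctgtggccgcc

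Each P14 library listed more IRF8 regions than any P9 library. The P9 libraries listed 1366, 1168, 2068 and 1249 distinct regions (replicates 1 to 4), and the P14 libraries 7959, 19243 and 7931 (replicates 1 to 3). The groups did not overlap, and P14 replicate 2 stood apart with more than the other P14 libraries together. The ratio of the geometric means was 7.49, a log2 difference of 2.90 (exact permutation test over libraries, two-sided, p = 0.0286, the smallest that 35 assignments allow). Fragment numbers of the stages overlapped. P9 libraries had 13.4, 17.8, 20.9 and 18.4 M fragments (M is the usual mega prefix) and P14 libraries 13.9, 17.8 and 24.4 M (log2 difference of 0.06, exact permutation p = 0.857). Relative to fragment number the log2 difference was 2.84 (exact permutation p = 0.0286). The lists of the stages were called against different IgG libraries, with 13.9 M fragments for P9 and 12.7 M for P14, so stage and control cannot be told apart. The fragment length given in the file headers was 240 and 242 bp in P9 replicates 1 and 2, 178 and 169 bp in P9 replicates 3 and 4, and 185 to 188 bp at P14. Nothing in the labels says that libraries came from separate animals, so p-values measure the spread between these libraries only.

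**Figure D1:**
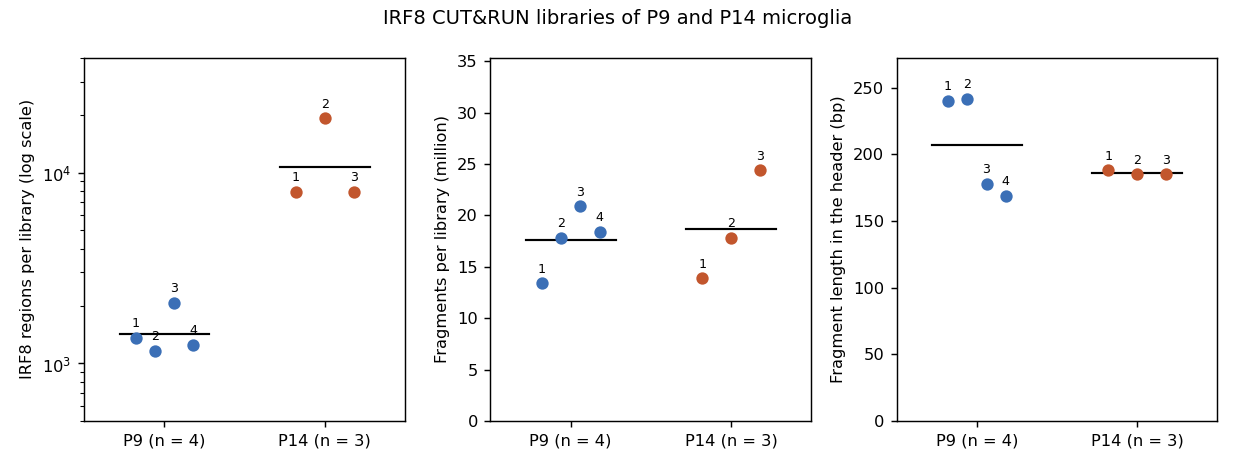
Distinct IRF8 regions (left, log scale), fragments (middle, M) and fragment length from the file headers (right, bp) for each P9 (blue, n = 4) and P14 (orange, n = 3) library; numbers beside points are replicates and bars are means (geometric on the left). P9 libraries lie between 1168 and 2068 regions and P14 libraries between 7931 and 19243, while fragment numbers overlap.

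Nearly all sites seen at P9 were also seen at P14, and most P14 sites had no P9 counterpart. Of the 23180 merged regions, 359 were listed in all 7 libraries, 1948 (8.4%) in all 3 P14 libraries and in 0 P9 libraries, and 3624 in exactly 2 P14 libraries and in 0 P9 libraries, which makes 5572 (24%) gained regions. The reverse class, regions in at least 2 P9 libraries and in 0 P14 libraries, held 25 regions (0.108%), and each of them was in exactly 2 P9 libraries. Of the 8136 P14 consensus regions, 1308 (16.1%) overlapped the P9 consensus and are called shared, 1256 (15.4%) overlapped a region of 1 P9 library or more but no consensus region, and 5572 (68.5%) overlapped none. Of the 1374 P9 consensus regions, 1313 (95.6%) overlapped the P14 consensus, 36 overlapped a single P14 library and 25 overlapped none. Most P9 consensus regions (91.6%) were in 15 or more of the 25 lists of the series, histone marks included. Without such regions, and on chromosomes 1 to 19 and X only, 104 P9 consensus regions remained, of which 54.8% were in the P14 consensus. The gained number rests in part on P14 replicate 2, since without it 2016 of 4070 consensus regions (49.5%) had no P9 region. That rule is also stricter, because a region must then be in both remaining libraries.

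**Figure D2:**
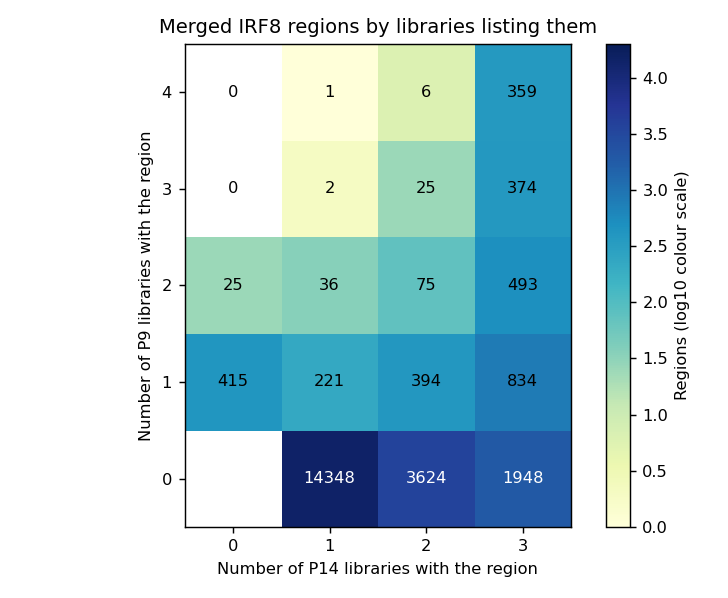
Merged IRF8 regions by the number of P14 libraries (x axis) and P9 libraries (y axis) that list them; the printed number is the count and the colour its log10. Most regions of a single library are at P14 (14348), 1948 regions are in all 3 P14 libraries and no P9 library, and the left column above 1 P9 library holds 25 regions.

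Sites missing at P9 were mostly the weak sites of the P14 lists. Among the strongest 200 regions of a P14 library, ranked by the authors' −log10 p, 2.5%, 2% and 5% (replicates 1 to 3) were in no P9 list. Beyond rank 500 and up to 1000 the shares were 31.2%, 25.2% and 32.6%, and beyond rank 4000 and up to 7900 they were 87.4%, 88.2% and 88.9%. The values of the 3 libraries lay close together although their lists differ in length. Taking P14 consensus regions in quartiles of mean rank within the list, the gained share was 90.1% in the weakest and 32% in the strongest quartile.

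**Figure D3:**
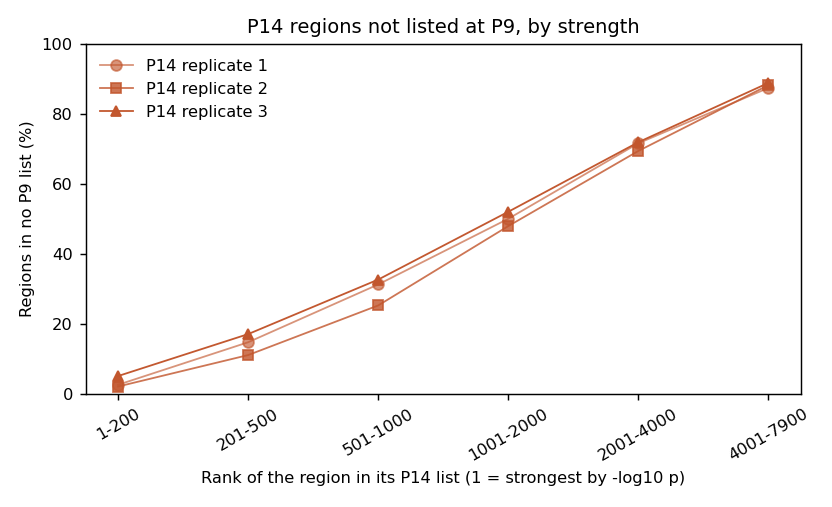
Share of P14 regions in no P9 list (y axis, percent) by the region's rank in its own P14 list (x axis, 1 is the strongest), 1 line per P14 replicate. The share rises from 2% to 5% among the strongest 200 regions to 87.4% to 88.9% beyond rank 4000.

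With every list reduced to its 1168 strongest regions, the length of the shortest, the picture was less one-sided. The P14 consensus then held 967 regions, of which 616 (63.7%) were shared, 177 overlapped a region of 1 P9 library or more, and 174 (18%) overlapped none. The P9 consensus held 1116 regions, of which 618 (55.4%) were shared and 265 (23.7%) overlapped no P14 region at this length. Set against the full lists of the other stage, 130 of the strong P14 regions (3.9% of 3331 merged regions at this length) remained without any P9 region, and 19 of the strong P9 regions without any P14 region. These last numbers are not comparable, since the full P14 lists are longer. With both sides at equal length, 70.9%, 75.5% and 70.2% of the strongest regions of P14 replicates 1 to 3 were found in a P9 list, and 65.9%, 66.4%, 68.2% and 57.2% of those of P9 replicates 1 to 4 in a P14 list. P14 regions were searched in 4 lists and P9 regions in 3, so these shares are not fully matched. At equal length 2 P14 libraries shared on average 38.2% of their merged regions (35.7% to 39.5% over 3 pairs), 2 P9 libraries 30.7% (25.8% to 36.5% over 6 pairs), and a P9 and a P14 library 30.1% (25.3% to 35.1% over 12 pairs). The mean within stages exceeded the mean between stages by 3.11 points (exact permutation test over libraries, one-sided, p = 0.0571), which does not pass 0.05, and at a −log10 q of at least 5 by 3.89 points (exact permutation p = 0.0286). Leaving out 1 library at a time gave 1.25 to 4.65 points.

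Most P14 sites of each class lay in active chromatin of adult microglia, and fewer gained than shared sites overlapped adult PU.1. Consensus regions of adult microglia in the same series were used for this description, from 2 wild-type libraries each for PU.1, H3K27ac and H3K4me1 and 3 libraries of the IRF8-EGFP strain for IRF8. They numbered 5359 for PU.1, 16935 for IRF8, 36697 for H3K27ac and 49737 for H3K4me1, so the overlaps with different lists are not comparable in size, and those with H3K27ac lie near their ceiling in every class. H3K27ac marks active regulatory DNA. It covered 90.3% of shared, 88.8% of partly shared and 86.8% of gained P14 regions. Adult IRF8 regions overlapped 98.9%, 97.5% and 90.0% in the same order, so most sites first listed at P14 were also listed in the adult. Adult PU.1 regions overlapped 75.9% of shared, 55.3% of partly shared and 33.7% of gained regions, and at equal list length 88.5% of shared and 69.5% of gained regions. At equal list length, gained means here and in the next paragraph that no P9 list of that length held the region. For the 130 of these regions that the full P9 lists also lacked, the PU.1 overlap was 66.9%. Within the strongest quartile of P14 regions PU.1 overlapped 83.6% of shared and 53.5% of gained regions, but shared regions also ranked higher there (median percentile 91.0 against 82.2) and were wider (1227 against 798.5 bp). In the next quartile, where median percentiles were 69.6 and 67.2, the overlap was 59.2% and 41.8%. IRF8 regions of peritoneal macrophages, which are resident macrophages outside the brain, overlapped 81.3% of shared and 44.5% of gained regions (85.1% and 59.1% in the strongest quartile, 87.5% and 66.1% at equal list length). These shares are over regions, which are not replicates, and carry no test.

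On full lists gained regions were more often at promoters, and at equal list length the shares were close. The centre lay within 1 kb of a transcription start in 18.7% of shared, 25.1% of partly shared and 26.1% of gained regions, and within introns in 43.4%, 42.8% and 43.7%. At equal list length the promoter share was 16.4% of shared and 17.2% of gained regions. A composite match within 100 bp of the centre was found in 12.5% of shared, 9.0% of partly shared and 7.2% of gained regions. Windows of the same width placed 5 kb from the centres of P14 regions held it in 2.11% of cases, and all 32851 RefSeq promoter sequences of 300 bases in 2.72%. At equal list length the composite share was 13.1% of shared and 10.9% of gained regions. Outside promoters the composite share was 13.5% in shared and 8.62% in gained regions, and at promoters 8.16% and 3.16%. The interferon-type motif was in 4.74% of shared and 4.0% of gained regions, against 2.81% of the shifted windows and 3.44% of promoter sequences, and at equal list length it was in 4.55% and 4.6%, so that the order was not kept. At shared promoters it was in 6.12%, and at gained promoters in 3.51%. The ETS motif was in 8.33% and 7.99% of shared and gained regions (shifted windows 1.4%, promoter sequences 3.2%), and the AP-1 motif in 7.57% and 6.6% (5.75% and 7.81%). At equal list length the ETS motif was in 8.44% of shared and 5.75% of gained regions, and the AP-1 motif in 8.60% and 5.75%. Outside promoters on full lists the ETS order was the reverse, at 8.65% and 9.35%. Of the 678 regions with a composite match, 27 had an interferon-type match and 38 an ETS match that shared bases with it. Some gained regions lay near P9 sites. Of 5572, 1099 (19.7%) were within 50 kb of a P9 consensus region, a distance that covers 4.51% of the genome, and their median distance was 280 kb.

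Tested library by library on the 1168 strongest regions, none of 10 features passed Benjamini-Hochberg adjustment. With motifs counted anywhere in the region, where P14 regions are wider, all 4 motifs passed (adjusted exact permutation p = 0.0476 for each), at 8.60 to 12.7 points higher at P14. Near the centre the interferon-type and AP-1 differences had been -0.00713 and -0.271 points, the first of them hardly different from 0. PU.1 overlapped 69.3%, 68.2%, 70.1% and 61.6% of these regions in the P9 libraries and 76.1%, 77.1% and 75.5% in the P14 libraries. The groups did not overlap, and the mean was 8.92 points higher at P14 (exact permutation test, two-sided, p = 0.0286, adjusted p = 0.114). Adult IRF8, H3K27ac and H3K4me1 overlaps also did not overlap between the groups, with means 7.48, 7.68 and 6.91 points higher at P14 (exact permutation p = 0.0571 and adjusted p = 0.114 for each). Region width behaved alike, with medians of 269 to 421.5 bp at P9 and 602.5 to 1003 bp at P14 (exact permutation p = 0.0286, adjusted p = 0.114). The composite motif was in 12.7%, 13.8%, 9.08% and 7.96% of the strongest regions at P9 and in 11.5%, 12.3% and 12.7% at P14, so that the P9 libraries spanned the P14 values (exact permutation p = 0.457, adjusted p = 0.653). The promoter share was 15.2%, 14.5%, 20.8% and 19.3% at P9 and 18.1%, 17.5% and 18% at P14. In both measures P9 replicates 1 and 2 stood apart from 3 and 4, as they did in fragment length, and the part of fragment length in this was not tested.

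Genes were counted as bound when a consensus region lay in the gene body or within 10 kb of it, and as gained when they had a P14 consensus region and no region in any P9 library. By this rule 1177 of 22033 protein-coding genes (5.34%) had a P9 site, 5716 (25.9%) a P14 site, and 3396 (15.4%) were gained. At 1737 genes (7.88%) each of the 3 P14 libraries had some region, not always the same one, and no P9 library had any, and 6 genes (0.0272%) had a P9 site but no region in any P14 library. Without P14 replicate 2 the gained genes numbered 1385 (6.29%). At equal list length 916 genes had a P14 site, and 130 were gained against P9 lists of that length. Set against the full P9 lists, 88 genes (0.399%) had one of these strongest P14 regions and no region in any P9 library. The 317 genes of 20 lists had 62 distinct P9 consensus sites and 332 at P14, of which 209 were gained and 92 of these were in all 3 P14 libraries. Below, fold enrichment is the authors' value over the IgG control of the stage for the strongest entry of a library in the region. It describes a site within a list and was not compared between stages.

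**Figure D4:**
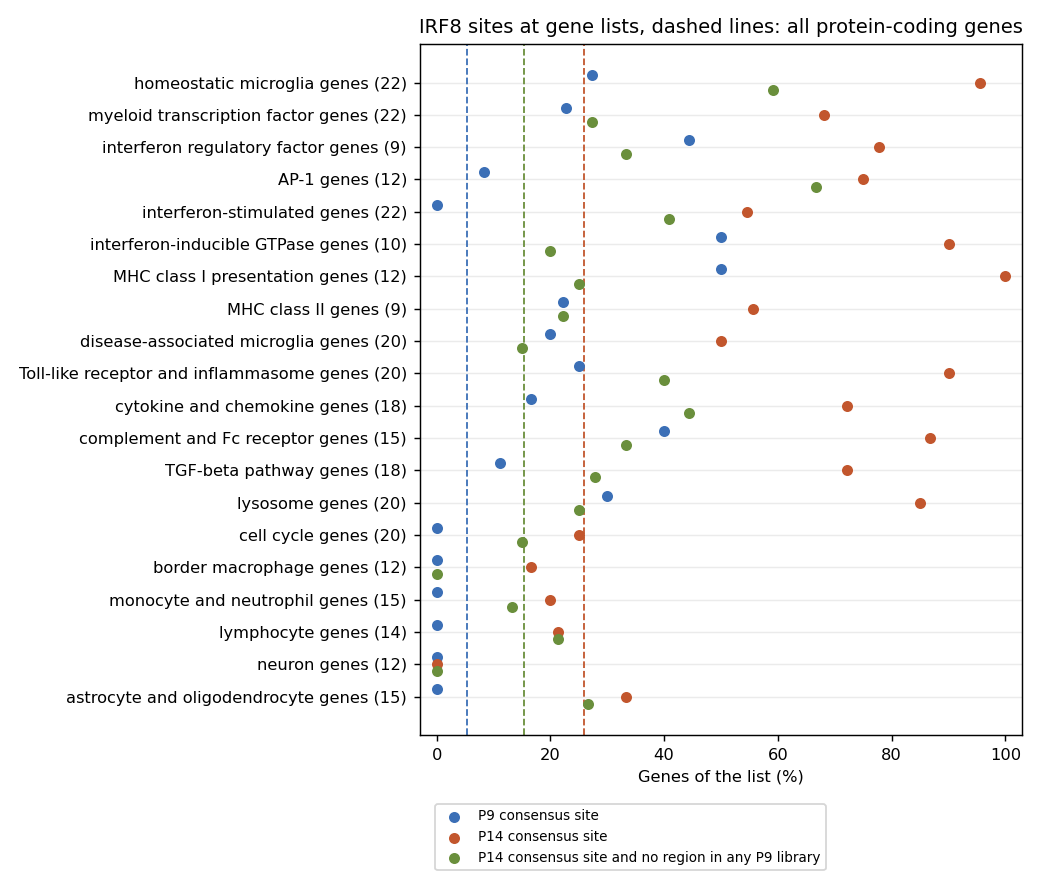
Share of the genes of each list (y axis, number of genes in brackets) with a P9 consensus site (blue), a P14 consensus site (orange) or a P14 site and no region in any P9 library (green); dashed lines give the same shares of all protein-coding genes, 5.34%, 25.9% and 15.4%. Homeostatic microglia genes reach 21 of 22 at P14, and neuron genes are at 0 in all 3 classes.

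Homeostatic microglia genes were nearly all bound at P14. Of 22 genes, 6 had a P9 site (27.3%, against 5.34% of all genes), 21 a P14 site (95.5%, against 25.9%) and 13 were gained (59.1%, against 15.4%). Without P14 replicate 2 the gained genes numbered 6. Those with P9 sites included P2ry12, the purinergic receptor that guides microglial processes, Cx3cr1, the fractalkine receptor, the lectin Siglech, the lipid receptor Trem2 and Aif1, which encodes IBA1. P2ry12 held 4 P9 and 7 P14 consensus regions. At its intronic site chr3:59227896-59230793 the fold enrichment was 7.17, 5.74 and 7.69 in P9 replicates 1 to 3 and 9.81, 26.4 and 5.35 in P14 replicates 1 to 3. P9 replicate 4 had no region there but listed the P2ry12 promoter site, at 6.75. Cx3cr1 had a P9 site that P14 replicate 3 lacked. Its intronic region chr9:120058642-120059635 was listed in all 4 P9 libraries (5.88, 3.93, 5.35 and 5.25) and in P14 replicates 1 and 2 (6.32 and 5.76). The Cx3cr1 promoter region chr9:120067946-120070183 was listed in P14 replicates 1 and 2 only, at 7.5 and 6.13. A site between Siglech and Tubgcp5 (chr7:55784154-55785401) was at 6.98, 5.14, 4.61 and 5.25 at P9 and 15.8, 16.7 and 10.8 at P14, while the Siglech promoter was listed at P14 only, at 5.31, 6.87 and 5.73. The distant site of Siglech was thus listed at both stages and its start at P14 only. The Aif1 promoter was listed in all 7 libraries, at 4.78, 4.23, 4.68 and 7.13 at P9 and 9.58, 15.9 and 8.03 at P14. Trem2 lacked a region in P9 replicate 2 and was at 6.57, 9.29 and 5.96 in the other P9 libraries and at 9.43, 10.3 and 5.17 at P14.

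Among the gained homeostatic genes, Olfml3, which encodes a secreted olfactomedin-like protein, had the highest rank. Its intronic region chr3:103727634-103728497, whose composite site is printed above, was at 8.33, 13.4 and 7.32 in P14 replicates 1 to 3. Selplg, the P-selectin ligand, followed at chr5:113836478-113837680 with 8.73, 7.95 and 7.90. Golm1 (8.80, 11.2 and 4.39) and Crybb1 (6.86, 9.72 and 4.39) also had a gained region in all 3 libraries, and Itgam, Gpr34, Fcrls, Sparc, Slc2a5, Mertk, Adgrg1, Rhob and Tmem119 completed the gained set. Tmem119 rested on 1 intergenic region in P14 replicates 2 and 3, at 3.97 and 5.27. Csf1r, the receptor for the survival factor of microglia, had no P9 consensus site. Its intronic region was listed in P9 replicate 3 (4.79) and in all P14 libraries (17.1, 17.7 and 7.32), so it was not counted as gained.

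Sall1, a transcription factor that defines microglial identity, was the 1 homeostatic gene with no consensus site within 10 kb at either stage. Farther out, 8 regions listed in at least 2 of the 7 libraries had the Sall1 start as their nearest coding start. Regions of a single library were not counted. The region −360 kb from it (chr8:89404035-89404934) was at 4.84 and 4.3 in P9 replicates 2 and 3 and at 7.08, 10.8 and 10.8 in P14 replicates 1 to 3. The region −242 kb from it (chr8:89286144-89286801) was in no P9 library and was at 12.5, 16.6 and 6.44 at P14, which placed it among the 10 highest gained regions named by rule below. Regions at −66.9, −83.2, −138, −285 and −349 kb were each in 2 P14 libraries and no P9 library.

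Irf8 itself had no consensus site within 10 kb at either stage. In that window 6 regions were listed, each in a single P14 library. The nearest site in more than 1 library was chr8:120792625-120793936, downstream of the gene and inside an intron of the read-through model Gm20388, at 4.03, 8.23 and 4.09 in P14 replicates 1 to 3. All P9 libraries lacked it. The ETS match printed above lies in it.

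**Figure D5:**
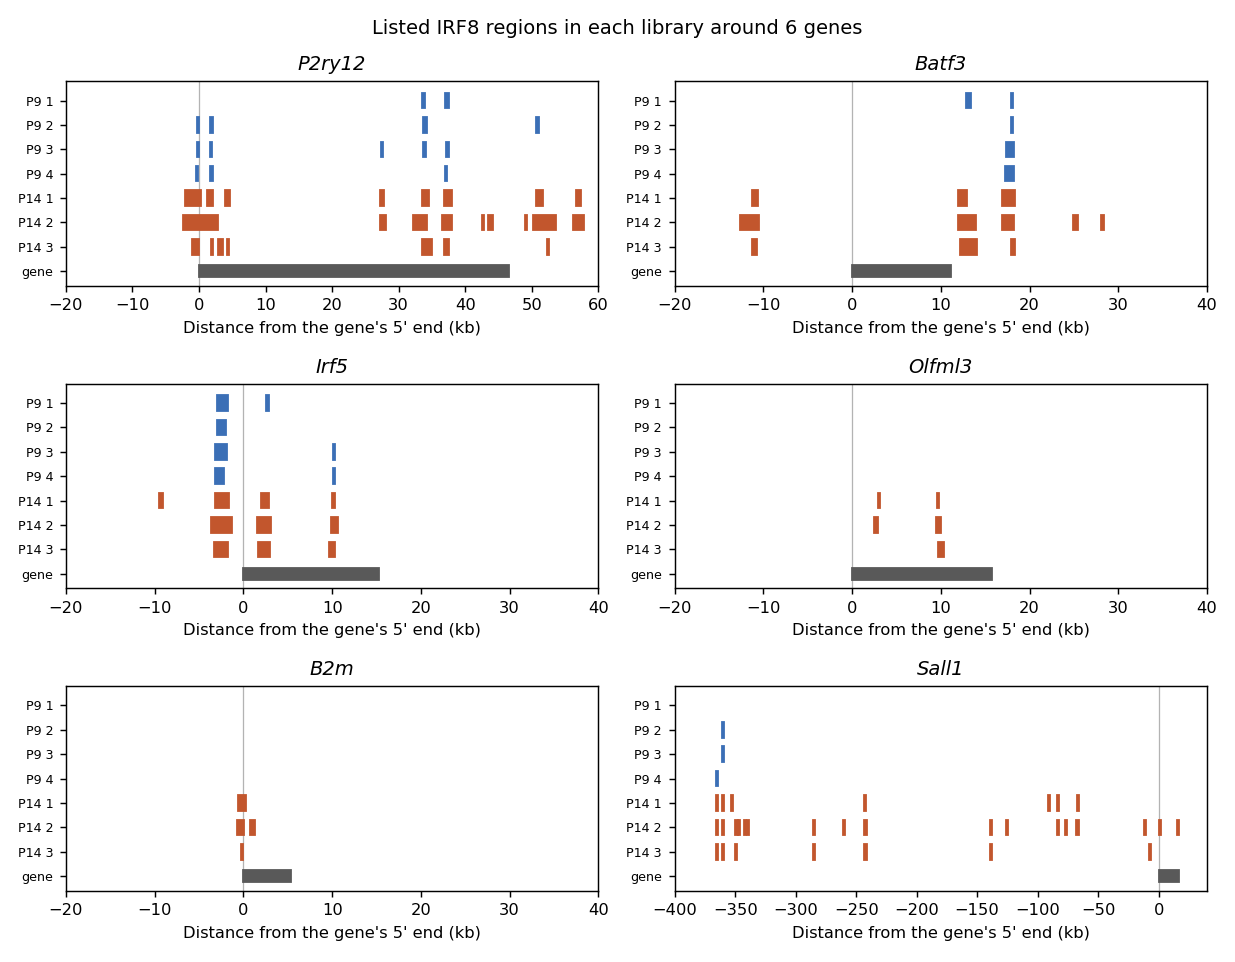
IRF8 regions listed in each P9 (blue) and P14 (orange) library around P2ry12, Batf3, Irf5, Olfml3, B2m and Sall1, by distance from the gene's annotated 5′ end (kb, positive is downstream); grey bars are gene bodies, and narrow regions are widened to be visible. P2ry12, Batf3 and Irf5 have regions at both stages, Olfml3 and B2m have orange regions only, and Sall1 has P9 regions only at its far upstream end.

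Genes for interferon regulatory factors had P9 sites at 4 of 9 (44.4%, against 5.34% of all genes), Irf1, Irf2, Irf5 and Irf9, and P14 sites at 7 (77.8%, against 25.9%). Without P9 replicate 1 or 3 the P9 sites were at 2. Irf5, which acts downstream of Toll-like receptors, had the strongest of these. Its upstream site chr6:29522974-29525368 was at 8.45, 15.4, 11.4 and 11.7 in the P9 libraries and at 25.8, 35 and 17.0 in the P14 libraries. There were 3 gained genes, 33.3% against 15.4% of all genes (1 gene without P14 replicate 2), Irf3 and Irf7 among them. Irf7 rested on P14 replicates 2 and 3, at 3.55 and 5.85. Of 22 myeloid transcription factor genes, Runx1, Mef2c, Batf3, Fli1 and Zeb2 had P9 sites (22.7%), 15 had P14 sites (68.2%) and 6 were gained (27.3%, or 3 genes without P14 replicate 2), among them Mef2a, Egr2, Etv5, Nfe2l2 and Rel. Without P9 replicate 3 or 4 the P9 sites were at 3. Batf3, an AP-1 partner of IRF8 in dendritic cells, had a downstream site in all 7 libraries (chr1:191114695-191116155), at 8.45, 5.14, 9.36 and 9.0 at P9 and 13.6, 23.9 and 7.49 at P14. The promoter of Mef2c, a factor of the microglial programme, was at 4.04, 5.74 and 5.63 in P9 replicates 1, 2 and 4 and at 17.1, 20.2 and 8.78 at P14. Spi1, which encodes PU.1, had no P9 consensus site. Of its P14 sites, chr2:91083877-91085134 was in no P9 library and was at 6.25, 12.6 and 6.73 at P14, and chr2:91086143-91087289 was also listed in P9 replicate 1.

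Of 12 AP-1 genes, 8 were gained (66.7%, against 15.4% of all genes). They were Fos, Fosb, Fosl1, Fosl2, Jun, Junb, Jund and Batf. Atf3 alone had a P9 site. Without P14 replicate 2 the gained AP-1 genes numbered 3, and without P14 replicate 3 they numbered 5. Batf had 3 gained regions in all 3 P14 libraries, the strongest at chr12:85705120-85706495 (7.5, 15.9 and 9.95). Junb (5.83, 10.5 and 6.44) and Jun (6.25, 8.31 and 5.27) each had 1 such region among the leading list genes.

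None of 22 interferon-stimulated antiviral genes had a P9 site, which is near the background of 5.34%, although 3, Mx2, Trim30a and Sp100, had a region in 1 P9 library. At P14, 12 had a site (54.5%, against 25.9% of all genes) and 9 were gained (40.9%, against 15.4%, and 6 genes without P14 replicate 2): Ifit1, Ifit2, Ifit3, Mx1, Oasl2, Stat2, Bst2, Ifitm3 and Ddx58. The Ifit2 and Ifit3 windows share a region, and the leading gained Stat2 region lies at the promoter of Pan2. Ifit3, an antiviral RNA-response protein, had a promoter region at 4.16, 10.3 and 4.23, and Mx1, an antiviral GTPase, at 7.37, 6.0 and 3.51. Isg15 and Usp18 were among the 10 genes without a P14 consensus site. Of 10 interferon-inducible GTPase genes, which act against intracellular pathogens, 5 had P9 sites (50%, against 5.34%), Gbp3, Gbp5, Gbp7, Tgtp1 and Tgtp2, and 9 had P14 sites. The Gbp3 promoter chr3:142559599-142560973 was at 6.09, 6.54 and 6.26 in P9 replicates 2 to 4 and at 17.5, 37.9 and 15.5 at P14. The Gbp7 promoter was listed in all 7 libraries, at 8.45, 7.25, 7.98 and 7.88 at P9 and 5.82, 9.23 and 4.35 at P14. This region also counts for the neighbouring Gbp5. Gbp2 (10.0, 12.6 and 4.10) and Irgm1 (7.91, 7.42 and 6.14) were gained, 20% against 15.4% of all genes, and without P9 replicate 3 the gained genes numbered 4.

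All 12 genes of MHC class I presentation had a P14 site, against 25.9% of all genes, and 6 had a P9 site (50%, against 5.34%): H2-D1, Tap1, Tap2, Psmb8, Psmb9 and Psme1. Tap1, Tap2, Psmb8 and Psmb9 lie side by side and share regions, so the 6 genes had 3 distinct P9 sites. Without P9 replicate 1 or 3 the genes with a P9 site numbered 2. H2-D1, a classical class I heavy chain, had a promoter region at 9.92, 9.36 and 6.0 in P9 replicates 1, 3 and 4 and at 17.1, 17.7 and 20.2 at P14. B2m, the light chain that all class I molecules need, was gained together with Psmb10 and the class I transactivator Nlrc5, which makes 25% against 15.4% of all genes (5 genes without P9 replicate 4, 1 without P14 replicate 2 or 3). The B2m promoter chr2:122146952-122148001 was in no P9 library and was at 7.5, 9.76 and 5.56 at P14. Of 9 class II genes, H2-Oa and Ctss had P9 sites, 5 had P14 sites (55.6%), and H2-DMa and H2-DMb1, which share sites, were gained, a share of 22.2% not far from the background of 15.4%. H2-Oa, a modulator of class II peptide loading, was at 9.92, 12.4 and 7.5 in P9 replicates 1, 3 and 4 and at 15, 22.8 and 20.5 at P14. Ciita, H2-Aa, H2-Ab1 and H2-Eb1 had no consensus site at either stage.

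Sensing and signalling genes of innate immunity were mixed. Over all protein-coding genes the shares were 5.34% with a P9 site, 25.9% with a P14 site and 15.4% gained (6.29% without P14 replicate 2). Of 20 Toll-like receptor and inflammasome genes, Tlr3, Tlr4, Nlrp3, Nlrp1b and Naip6 had P9 sites (25%), 18 had P14 sites (90%) and 8 were gained (40%, with 5 genes without P14 replicate 1 and 4 without replicate 2): Tlr1, Tlr2, Tlr7, Myd88, Nlrc4, Casp1, Casp4 and Aim2. Tlr4 encodes the receptor for bacterial lipopolysaccharide, and its promoter was at 5.71, 5.33, 5.24 and 6.38 in the P9 libraries and at 14, 17.3 and 8.78 in the P14 libraries. Tlr2, the receptor for bacterial lipoproteins, had the highest-ranked gained region of all list genes, chr3:83839351-83840371, at 10.6, 15.6 and 11.5. Casp1 and Casp4 share their promoter-proximal region (7.5, 6.87 and 5.85). Among 18 cytokine and chemokine genes, Il1a, Il1b and Ccl12 had P9 sites (16.7%), 13 had P14 sites (72.2%) and 8 were gained (44.4%, with 5 genes without P14 replicate 1 or 2): Il6, Il12b, Tnf, Ccl2, Ccl5, Ccl7, Cxcl10 and Cxcl16. An intergenic site near Il1b (chr2:129380094-129381799) was at 8.73, 8.76, 16.0 and 6.75 at P9 and 17.9, 26 and 11.2 at P14. Ccl5, a chemokine for T cells and monocytes, was at 9.16, 12.6 and 7.90 at its gained site. The only P14 consensus region counted for Tnf lies at the promoter of Lst1, and the leading Cxcl16 region is nearest to Med11. A consensus region reached the Ccl7 window, but only 1 P14 library had a region of its own inside it. Of 15 complement and Fc receptor genes 6 had P9 sites (40%) and 13 P14 sites (86.7%), but C1qa, C1qb and C1qc share a region, so with C3ar1, Fcgr1 and Fcer1g these were 4 distinct sites. The region of the C1q genes, which encode the chains of the first complement component, was at 5.49, 5.70, 7.13 and 7.64 at P9 and 8.88, 5.83 and 3.33 at P14. Fcgr1, the high-affinity receptor for IgG, was at 7.45, 7.37, 10.8 and 4.13 at P9 and 12.5, 20.6 and 8.19 at P14. C5ar1, C5ar2, Itgb2, Fcgr3 and Fcgr4 were gained (33.3%, with 3 genes without P14 replicate 2). C5ar1 and C5ar2 were counted through 1 shared region, at the C5ar2 promoter.

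TGF-beta signalling, which maintains homeostatic microglia, was bound at P9 at the ligand gene Tgfb1 and at the corepressor gene Tgif2, 2 of 18 genes (11.1%, against 5.34% of all genes), and at P14 at 13 (72.2%, against 25.9%). The Tgfb1 site chr7:25705496-25707438 was at 5.44, 4.68 and 7.88 in P9 replicates 2 to 4 and at 8.32, 11.7 and 7.45 at P14. The receptor gene Tgfbr2 was gained with 7 gained regions, as were Tgfb2, Smad7, Nrros and Itgb8, which makes 27.8% against 15.4% of all genes. The gained number was 2 without P14 replicate 1, 1 without P14 replicate 2 and 10 without P9 replicate 3. Of 20 lysosome genes, Ctsc, Ctsh, Lamp1, Grn, Psap and Tfeb had P9 sites (30%), 17 had P14 sites (85%) and 5 were gained (25%, with 9 genes without P9 replicate 3), among them Ctsk, Lipa, Scarb2 and Atp6v0d2. Psap, the precursor of the saposins, had an intergenic site at 7.72, 9.67, 15 and 8.63 in the P9 libraries and at 10.5, 21.9 and 6.75 in the P14 libraries. Tfeb, a transcription factor for lysosomal genes, was at 7.17, 6.73, 7.73 and 5.63 at P9 and 13.7, 21 and 12.6 at P14. Of 20 disease-associated microglia genes, Axl, Ctsb, Ccl6 and Cd68 had P9 sites (20%) and 10 had P14 sites (50%), and Ctsd, Ctsl and Tyrobp were gained, a share of 15% that lies near the background of 15.4% (5 genes without P9 replicate 3). Axl, a receptor for the clearance of dying cells, was at 4.04, 4.49, 6.02 and 6.75 at P9 and 10.0, 19.4 and 7.61 at P14. Apoe had no region in any of the 7 libraries within 10 kb, and Lpl, Clec7a, Spp1 and Gpnmb had no P14 consensus site.

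Markers of other cell types were checked as a description of the sorted cells, with the limit that IRF8 sites show binding and not expression. None of 12 neuron genes had a consensus site at either stage. Border macrophage genes had P14 sites at 2 of 12, Mrc1 and Lyve1, and 0 gained genes, because each also had a region in a P9 library. They held 3 gained regions, of which the Mrc1 intronic region chr2:14238822-14239886 was at 7.08, 14.1 and 7.90 at P14 and was among the strongest at equal list length. Monocyte and neutrophil genes had 3 of 15 with 2 gained, Ltf among them, and lymphocyte genes 3 of 14, all gained, Cd4, Lck and Cd79b. Astrocyte and oligodendrocyte genes had P14 sites at 5 of 15, with Aldh1l1, Slc1a2, Mbp and Mog gained, and cell cycle genes at 5 of 20, with Mcm3, Mcm5 and Birc5 gained. No gene of these 6 lists had a P9 consensus site, against 5.34% of all genes. The P14 share was 33.3% for astrocyte and oligodendrocyte genes, above the background of 25.9%, and 0% to 25% for the other lists, below it. Gained shares were 26.7% for astrocyte and oligodendrocyte, 21.4% for lymphocyte, 15% for cell cycle and 13.3% for monocyte and neutrophil genes, against 15.4% of all genes. With 1 library left out, these gained counts ranged from 2 to 5, 2 to 3, 1 to 5 and 1 to 3 in that order. For border macrophage genes they ranged from 0 to 1. The Cd79b region is nearest to Gh.

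The 10 shared regions that ranked highest at P14, chosen after their values were seen among 338 regions of all 7 libraries that carried adult H3K27ac and were no wider than 5 kb, all overlapped adult PU.1. The leading one, 3876 bp from the nearest start of Mbnl1 (chr3:60468431-60469976), was at 21, 20.8, 25.2 and 18.9 at P9 and 49.9, 66.4 and 33.8 at P14. Others lay in Plscr1 near Plscr2, in Synpr, in Sfi1, at 135 kb from Cd83, in Tyk2, a kinase of interferon receptors, in Cln8, at the promoter of Wdfy4, a gene of antigen cross-presentation, in Rbm47 and near Strap. The Tyk2 region was at 14.7, 11.8, 15 and 8.25 at P9 and 25.4, 34.7 and 22.2 at P14. A high rank did not always go with a high fold enrichment. The Sfi1 region was at 2.82, 2.72, 2.88 and 3.07 at P9 and 5.73, 8.73 and 4.66 at P14, and the Cln8 region at 3.97, 3.22, 4.38 and 4.73 at P9 and 27.1, 27.1 and 27.2 at P14. The rule made for shared regions, which left out any region present in 15 or more of the 25 lists, left only 2 of them, near Adgrl2 and Vmn2r87, because 91.6% of P9 consensus regions were in at least that many lists, the histone marks included.

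By the same rule 564 gained regions of all 3 P14 libraries remained, and the 10 highest were nearest to Ankrd54, Usp6nl, Kcnma1, Pex11g, Cr2, Zfp462, Hkdc1, Sall1, Adrb1 and Tespa1. The Ankrd54 promoter region chr15:79062761-79063519 led with 12.5, 15.5 and 13.9. The first 5 were also among the strongest P14 regions at equal list length. Without the limit on lists, gained regions with adult H3K27ac were led by an intron of Ston2 (15, 12.6 and 13.5) and included Tlr2, Rin3, Ier5 and Tcf12. Among list genes, 6 of 317 had a region among the strongest at equal list length and no P9 region, Batf, Ccl5, Gbp2, Olfml3, Selplg and Tlr2, which is 1.89% against 0.399% of all genes. The protein-coding models with the most gained regions were Gm20388 with 17, a read-through model that spans several genes on chromosome 8, Asap1 with 10, Frmd4a with 9, and Etv6, Fgfr2, Nav2, Sdk1, Tgfbr2 and Zfhx3 with 7 each. The counts are not per length.

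The class of P9 without P14 held 25 regions, and 12 to 56 when 1 library was left out. None of the 25 was at a promoter, 14 were intergenic, 2 overlapped adult PU.1 and 3 adult H3K27ac, and 0 held a composite match, against 15.5% of the P9 regions that were shared. By library, 12 were in replicates 1 and 2, 12 in replicates 3 and 4, and 1 in replicates 1 and 3, so that all but 1 followed the division in fragment length. On chromosome Y there were 4, in mice labelled female. The highest-ranked, chr9:35305317-35305547 in an intron of Gm33838 and 37567 bp from the start of Rpusd4, had a pileup of 23268 and 20237 fragments in replicates 3 and 4 with a fold enrichment of 1.60 and 1.65, and one 24931 bp from the start of Ly6c2 had a pileup of 547 and 476 with 1.67 and 1.86. The others named by rank were Gm21860, Gm3376, Filip1l, Mid1, Orc5, Pot1a and Ptgis. No gene of the 20 lists except Ctsk, 27183 bp away from its region, and Ly6c2 was the nearest gene to one of them.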

How the data were processed

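The 7 deposited IRF8 peak lists (narrow peaks, mm10 per the submitters' processing notes) were used, with adult and peritoneal lists of the same series for overlaps. Per the file headers, the authors called peaks per library with MACS 2.2.7.1 against the IgG library of the stage, with paired fragments, a q threshold of 0.01 and a maximum gap of 640 bp. For each peak the authors' files give the pileup (signal at the summit), the fold enrichment over the control, and −log10 p and −log10 q. These describe or rank peaks within a list only. Depth was taken as the fragment number in the headers, 13.4 M to 24.4 M. The lists hold no counts per region and library, so a missing region is a region not called and no interval was computed for single sites.

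Entries with the same chromosome, start and end were counted once. Regions were merged at an overlap of 1 bp, and a consensus region needed 2 libraries of the stage. All peaks lay within the chromosome lengths of GRCm38.p6, whose sequence and GENCODE M21 genes were used, and promoter sequences for the motif shares came from RefSeq. Tests were exact permutation tests over libraries, with Benjamini-Hochberg adjustment over the 10 features. Computation used Python 3.11.15, numpy 2.4.6, pandas 2.3.3, scipy 1.17.1, pysam 0.24.0 and samtools 1.23.1, and the scripts were tested on simulated lists. The libraries and gene lists were chosen with earlier results of these data known. Named are list genes with a P9 site, up to 30 gained list genes and the 10 highest regions of each class by mean rank within the lists (P14 lists for shared and gained regions, P9 lists for the rest, leaving out regions in 15 or more of 25 lists), the genes with most gained regions, and 9 fixed genes (Irf8, Sall1, Spi1, Cx3cr1, P2ry12, Tmem119, Csf1r, Apoe and Batf3). For P9-site genes beyond those described, only the name is given. A few genes that the rule names are not reported here. Alternatives were single libraries left out, a stricter q, equal list lengths, other consensus, overlap and gene windows, and other motif windows. Taking P9 replicates 1 and 2 or 3 and 4 alone was added after the data were seen, as was the restriction to chromosomes 1 to 19 and X.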

Additional observations from a re-analysis of the deposited data

How the results depend on the processing

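The direction of the difference in region number held in every alternative run. Leaving out 1 library gave log2 differences of 2.48 to 3.12 (exact permutation p = 0.0667 to 0.1, the smallest those designs allow), P9 replicates 1 and 2 alone gave 3.08 and replicates 3 and 4 alone 2.73 (exact permutation p = 0.1 for both), and the replicate block gave 2.84 (exact permutation p = 0.25, the smallest for 3 pairs). Same-numbered libraries did not deviate together (correlations of 0.0712, 0.049 and -0.0869 over 359 regions). P9 replicate 4 and P14 replicate 3, which differ in number, were at 0.153. What a pair from the same litter or day would give is not known, so these values cannot say whether replicate numbers mark pairs. The file headers name P9 replicates 3 and 4 rep6 and rep7, unlike the sample titles whose numbers were used here. Leaving out 1 library gave 902 to 1374 P9 and 4070 to 8136 P14 consensus regions, 879 to 1268 shared, 2016 to 6206 gained (49.5% to 76.3% of P14) and 12 to 56 P9 regions without P14, and 87.9% to 97.6% of P9 regions in the P14 consensus. It gave 800 to 1177 genes with a P9 site, 3278 to 5716 with a P14 site and 1385 to 3992 gained. The lowest P14 and gained values came without P14 replicate 2 and the lowest P9 consensus without P9 replicate 3. Without P14 replicate 1, 3409 regions were gained and 90.5% of P9 regions were in the P14 consensus. At a −log10 q of at least 5 there were 751 P9 and 5072 P14 consensus regions, 720 shared, 3607 gained and 693 genes with a P9 site. P9 replicates 1 and 2 alone gave 662 P9 consensus regions, 637 shared, 13 without P14, 80.8% of P14 gained and 562 genes with a P9 site, and replicates 3 and 4 alone gave 725, 696, 12 and 671 for P9 consensus, shared, without P14 and P9-site genes. Equal list length gave 967 P14 consensus regions, 616 shared, 174 gained (18%), 265 P9 regions without P14, 55.4% of P9 regions in the P14 consensus, 916 genes with a P14 site and 130 gained genes. In that setting, gained and without P14 mean absent from the other stage's lists of the same length. Requiring every library gave 364 P9 and 4013 P14 consensus regions, 360 shared, 1948 gained (48.5%), 0 without P14, and 327, 3278 and 1372 genes with a P9 site, with a P14 site and gained. Absence from the other stage's consensus gave 61 P9 regions without P14 and 83.9% of P14 regions gained. On chromosomes 1 to 19 and X and without regions in 15 or more lists, both limits together, there were 104 P9 and 3286 P14 consensus regions, 57 shared, 2972 gained (90.4%), and 54.8% of P9 regions in the P14 consensus. The chromosome limit alone, added after the data were seen, changed none of these counts by over 1.5 times. Within 2 kb of a start, 322, 2524 and 1798 genes had a P9 site, had a P14 site or were gained, and with 50 kb on each side 2532 and 9912 had a P9 or P14 site. Counting motifs anywhere in the region, where P14 regions are wider, the P14 minus P9 difference was 12.7 points for the composite, 10.6 for ETS, 8.60 for the interferon-type and 11.8 for the AP-1 motif (adjusted exact permutation p = 0.0476 for each). In the windows of fixed width near the centre, the last pair had been at -0.00713 and -0.271 points. The similarity difference was 3.89 points at the stricter q (exact permutation p = 0.0286). For full lists it was 18.1 points, a value that moves with the difference in region number, since lists of 1168 and 19243 regions can share few of their merged regions, and it carries no test here. Other causes of these shifts were not tested.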
